A study of Homo sapiens with 36 samples.

Results

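Cultures of HK-2, a human cell line immortalized from the epithelium of the renal proximal tubule, were compared after 48 h with CdCl and after 48 h with vehicle, 3 arrays against 3. These 6 arrays, chosen only by the treatment and time in their sample descriptions, belong to a series of 36 single-colour arrays that also holds cells given Di or Kbr. The labels call each array a biological replicate, spell out none of the compound names and give no dose of CdCl, and the series title calls them Tox 2 compounds. All cells were grown in medium with EGF, hydrocortisone, insulin, transferrin and selenite and were treated near confluence, and the vehicle cultures also served as controls for Di. CdCl at 12 h, Di at 48 h and high-dose Kbr at 48 h, with their vehicle groups, each of 3 arrays, serve for comparison. Values are log2 expression per gene after GCRMA, a background correction and normalization for this kind of array, and 4 on that scale is taken as the level of background signal. A difference is CdCl minus vehicle on the log2 scale with its standard error (SE), and a gene passed when limma's adjusted p was below 0.05.

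The cadmium ion, like zinc, can load the small cysteine-rich proteins called metallothioneins, and the zinc-sensing factor MTF1 switches their genes on through short promoter sequences known as metal response elements. Many electrophiles and metals also act on KEAP1, which otherwise has the transcription factor NRF2 degraded. NRF2 then drives genes for haem breakdown, glutathione synthesis and the reduction of quinones, while damaged proteins release HSF1, which drives chaperone genes. In the kidney the proximal tubule takes up metals from the filtrate and is a main site of metal injury. Whether CdCl in these labels is a cadmium salt is not stated by them, and the labels were used as they stand.

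Of 11092 genes tested, 4735 passed in CdCl against vehicle at 48 h, 2292 higher and 2443 lower. The background for each count of members is therefore 42.7% past the test, 20.7% higher and 22.0% lower. At least 2-fold differences that passed made up 10.8% of genes, 5.24% higher and 5.53% lower, and in 57.3% of genes the arrays of the groups did not overlap. Arrays correlated at r = 0.991 to 0.995 within CdCl and at 0.993 to 0.995 within vehicle, and at 0.949 to 0.958 between the groups. As a sign of RNA quality, 3' probe sets of beta-actin exceeded its 5' probe sets by 1.65 ± 0.21 with CdCl and 1.50 ± 0.12 with vehicle (log2, mean ± SD, n = 3 each), and the part of this in the results was not tested. Of 14 proximal tubule markers 3 averaged above background in both groups, SLC3A1, SLC4A4 and DPP4, while LRP2, CUBN and AQP1 did not, so the name of the cell type rests on few of its defining transcripts here. Of 8 broader tubule epithelial markers 6 lay above background, as did 2 of 5 fibroblast markers (DCN and LUM) and 0 of 5 endothelial and 0 of 5 leukocyte markers. In bulk RNA, fewer cells of a kind and less RNA per cell cannot be told apart.

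CdCl raised the metallothioneins, the metal-binding proteins named above, with the highest median of all the lists described here. Of 13 listed genes 9 were measured, and 8 of the 9 rose, with a median difference of 2.28 over the list, against -0.01 over all genes. Genes of the list differ by few bases, and probe sets can read several of them, so which member a value belongs to is uncertain. The promoter is the region in which metal response elements are known to lie, and the sequences just before the annotated start are shown for the 3 risen members found in the RefSeq table (GRCh38.p14, forward strand of chromosome 16 throughout). Capitals mark the metal response element core, TGCACNC or TGCGCNC on either strand.
MT1H, chr16:56669634-56669813: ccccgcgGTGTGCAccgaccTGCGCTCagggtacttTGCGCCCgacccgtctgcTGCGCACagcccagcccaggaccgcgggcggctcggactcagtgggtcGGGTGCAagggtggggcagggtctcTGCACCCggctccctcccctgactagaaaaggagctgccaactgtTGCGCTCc
MT1X, chr16:56682310-56682469: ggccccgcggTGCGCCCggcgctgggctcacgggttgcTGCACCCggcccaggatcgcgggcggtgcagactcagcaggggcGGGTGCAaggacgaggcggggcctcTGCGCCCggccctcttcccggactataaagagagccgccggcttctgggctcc
MT2A, chr16:56608404-56608583: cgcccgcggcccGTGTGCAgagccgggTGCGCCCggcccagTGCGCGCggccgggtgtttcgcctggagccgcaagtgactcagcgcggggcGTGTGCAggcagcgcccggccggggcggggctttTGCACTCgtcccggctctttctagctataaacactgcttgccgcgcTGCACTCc
In the 250 bases before the start the core matched 8 times for MT1H, 7 times for MT2A and 4 times for MT1X, with 1 match each of MT1H and MT2A upstream of the stretch shown. Among 27305 promoters of the same length in the table, 24.7% held the core at least once, 6.51% at least 2 times and 1.56% at least 3 times. Among the 9184 of them that belong to tested genes, the shares were 33.9%, 9.84% and 2.36%. A match describes these letters and is not evidence of a bound site.

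MT1M, a metallothionein 1 gene, had 14.61, 14.37 and 14.56 log2 units in CdCl cells, against 8.29, 8.16 and 8.45 in vehicle cells. MT1G, another of the same cluster, had 14.58, 14.76 and 14.54 with CdCl and 10.41, 10.37 and 10.38 with vehicle. MT2A, the human metallothionein 2, had 15.27, 15.21 and 15.20 with CdCl, against 13.52, 13.46 and 13.53 with vehicle. All CdCl arrays of the 3 genes lay above all vehicle arrays. The differences were 6.21 ± 0.23 for MT1M (adjusted p = 3.59e-18), 4.24 ± 0.16 for MT1G and 1.72 ± 0.12 for MT2A, or 74.1-fold, 18.9-fold and 3.30-fold. MT1X (2.63 ± 0.14), MT1F (2.52 ± 0.14), MT1H (2.28 ± 0.16), MT1HL1 (2.04 ± 0.16) and MT1E (1.84 ± 0.11) completed the risen members. CdCl values of the 8 genes reached from 13.66 to 15.27, near the top of an array scale whose highest value was 16.1. MT3, the brain isoform, lay at the background level in both groups (4.08 with CdCl and 4.07 with vehicle) and had a difference of 0.00 ± 0.07. Of the listed genes 12 sit on chromosome 16 and MT1HL1 on chromosome 1.

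**Figure D1:**
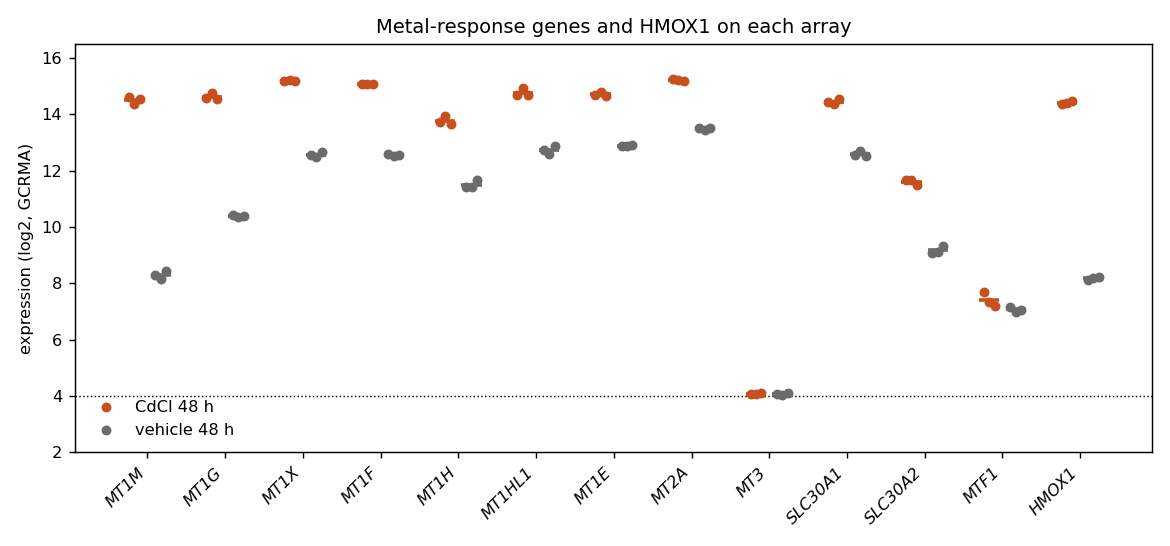
Expression on each array (log2, GCRMA) for the measured metallothioneins, 2 zinc exporters, MTF1 and HMOX1, with CdCl 48 h in orange left of vehicle 48 h in grey. Bars are group means and the dotted line is the background level of 4. All CdCl points lie above all vehicle points except for MT3.

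**Figure D2:**
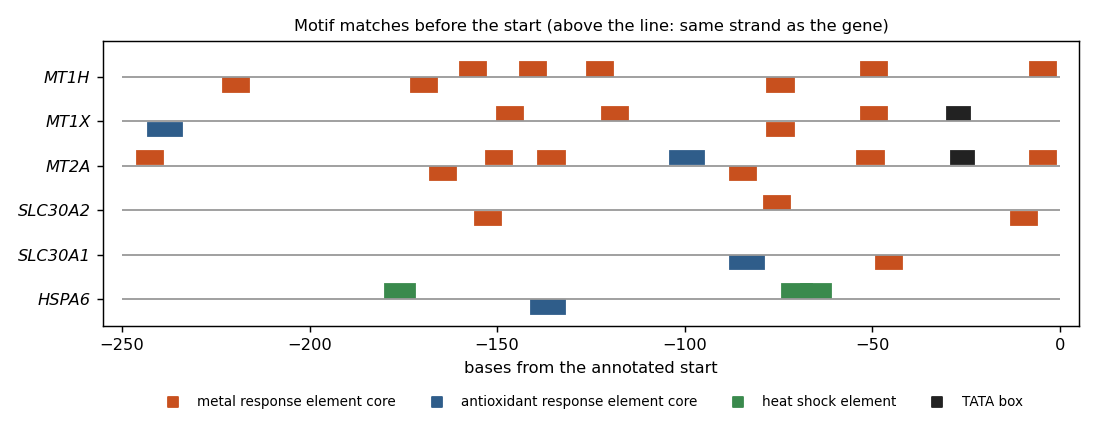
Positions of motif matches in the 250 bases before the annotated start of 6 genes, in bases from the start, drawn above the line for the gene's own strand and below it for the other. MT1H has 8 metal response element cores, MT2A 7, MT1X 4, SLC30A2 3 and SLC30A1 1, and HSPA6 has 3 heat shock elements.

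Zinc exporters, which move zinc out of the cytosol and some of which are also induced through MTF1, rose in part. Of 8 measured genes of MTF1 and the exporter family 3 rose and 0 fell. SLC30A1, the exporter of the plasma membrane, had 14.43, 14.38 and 14.54 in CdCl cells, against 12.55, 12.69 and 12.51 in vehicle cells, a difference of 1.87 ± 0.08. SLC30A2, which loads zinc into vesicles, had 11.69, 11.67 and 11.48 with CdCl and 9.07, 9.11 and 9.32 with vehicle, a difference of 2.44 ± 0.24. No array of either gene overlapped the other group. SLC30A6 rose by 0.33 ± 0.11, a call lost without CdCl replicate 1 or 2 or vehicle replicate 1 (adjusted p = 0.068, 0.0625 and 0.15) or with its probe sets averaged (0.0812). MTF1 itself differed by 0.34 ± 0.15 (adjusted p = 0.0798). The promoters of both risen exporters are shown with the same capitals (GRCh38.p14, reverse strand of chromosome 1).
SLC30A1, chr1:211579162-211579241: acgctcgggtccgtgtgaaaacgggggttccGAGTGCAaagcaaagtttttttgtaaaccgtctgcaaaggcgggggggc
SLC30A2, chr1:26046119-26046278: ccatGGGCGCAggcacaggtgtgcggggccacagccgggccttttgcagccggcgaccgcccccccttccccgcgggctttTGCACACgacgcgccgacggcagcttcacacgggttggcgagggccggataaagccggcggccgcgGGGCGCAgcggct
The core matched once for SLC30A1 and 3 times for SLC30A2, and 0 times in the same window of MTF1. Among 13 measured importers of zinc and other divalent metals 5 rose and 1 fell. SLC39A4, the gut zinc importer, rose by 0.88 ± 0.21 and SLC39A14, which also carries manganese, iron and cadmium, by 0.72 ± 0.21, while SLC39A10 fell by 0.50 ± 0.20. The SLC39A10 call was lost with median centring (adjusted p = 0.0713), without a filter (0.0731) and without any single CdCl array or vehicle replicate 2 or 3 (0.0553 to 0.168). Of the other 3 that rose, SLC39A11 lost its call without any of 5 single arrays (0.0579 to 0.129), SLC39A9 without any of 4 (0.0854 to 0.158) and SLC11A2 without CdCl replicate 3 (0.0612). SLC39A8, another carrier of cadmium, differed by -0.01 ± 0.12.

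Haem oxygenase stood with MT1M at the top of the comparison. HMOX1, which opens the haem ring and frees its iron, had 14.37, 14.39 and 14.46 in CdCl cells, against 8.10, 8.21 and 8.21 in vehicle cells. The groups did not overlap, with a difference of 6.23 ± 0.19 (75.3-fold, adjusted p = 4.84e-20). Of 14 measured genes of haem breakdown and synthesis 8 rose and 4 fell. BLVRB and BLVRA, which reduce the biliverdin that HMOX1 makes, rose by 1.00 ± 0.14 and 0.57 ± 0.10, and ABCB6, a porphyrin transporter, by 1.77 ± 0.17. The early synthesis enzyme ALAD fell by 1.51 ± 0.18, although a second, dim probe set of the gene gave -0.58, and the haem exporter FLVCR1 fell by 1.22 ± 0.18. Iron genes went both ways, 4 up and 3 down of 9. The only known cellular iron exporter, ferroportin (SLC40A1), had 6.45, 6.09 and 6.56 with CdCl, against 8.43, 8.33 and 8.38 with vehicle, a fall of 2.01 ± 0.29 on the log2 scale. The transferrin receptor TFRC rose by 0.66 ± 0.18 and the ferritin light chain FTL by 0.35 ± 0.06.

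The subunits of the enzyme that starts glutathione synthesis rose, while peroxide-removing enzymes did not. In the list of glutathione synthesis and cystine uptake 3 of 13 measured genes rose and 2 fell, shares near those of all genes. GCLM, the regulatory subunit of the rate-limiting enzyme, had 12.35, 12.52 and 12.31 in CdCl cells, against 9.46, 9.29 and 9.67 in vehicle cells (2.92 ± 0.15). GCLC, its catalytic subunit, rose by 1.71 ± 0.24. The GCLM and GCLC arrays of the groups did not overlap. The cystine importer SLC7A11 had 11.10, 11.03 and 11.29 with CdCl and 10.37, 10.78 and 10.41 with vehicle. That difference, 0.62 ± 0.43, missed the threshold (adjusted p = 0.253). It passed when only arrays of the CdCl and Di set (adjusted p = 0.0272) or of the compared groups (adjusted p = 0.00985) were fitted. The 3 probe sets of SLC7A11 gave differences from 0.61 to 1.45. In the thioredoxin and peroxiredoxin list 5 of 13 rose and 3 fell. SRXN1, which repairs overoxidized peroxiredoxins, rose by 2.02 ± 0.16 and the thioredoxin reductase TXNRD1 by 1.90 ± 0.11. SESN1, a p53-induced antioxidant gene, fell by 1.86 ± 0.31, and TXNIP, a brake on thioredoxin, lay under the background level of 4 in both groups. Of 7 genes of superoxide and peroxide removal 0 rose and 3 fell: the secreted peroxidase GPX3 by 1.65 ± 0.12, GPX8 by 0.93 ± 0.11 and catalase (CAT) by 0.61 ± 0.13.

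Most measured reductases rose. Of 14 measured quinone, aldo-keto and carbonyl reductases 9 rose and 3 fell, with a list median of 0.69. NQO1, which reduces quinones by a 2-electron step, had 12.74, 12.51 and 12.57 in CdCl cells and 10.03, 10.02 and 10.07 in vehicle cells (2.57 ± 0.13). NQO2 rose by 2.09 ± 0.10 and AKR1C1, a steroid-reducing aldo-keto reductase whose probe sets cannot be told surely from those of AKR1C2 and AKR1C3, by 2.58 ± 0.27. ALDH3A2, which oxidizes fatty aldehydes, had 8.38, 8.17 and 8.10 with CdCl, against 9.61, 9.60 and 9.78 with vehicle, and fell by 1.44 ± 0.14. Among NRF2 and its regulators 5 of 11 rose and 2 fell. TRIM16 rose by 2.80 ± 0.14 and the small Maf protein MAFF by 2.20 ± 0.15, whereas the transcript of NRF2 itself, NFE2L2, fell by 0.69 ± 0.19. The NADPH-making enzymes split, with ME1 up by 0.94 ± 0.09 and TALDO1 by 0.90 ± 0.09 and PGD down by 0.59 ± 0.12. Of 10 glutathione transferases 4 rose and 2 fell, and of 6 multidrug efflux transporters 3 rose and 1 fell.

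Cytosolic chaperones and co-chaperones rose. HSPA6, an HSP70 that is almost silent without stress, had 7.68, 7.40 and 7.83 in CdCl cells, against 2.47, 2.44 and 2.47 in vehicle cells, where it lay under background. Its level was at least 12.4-fold higher with CdCl (adjusted p = 2.67e-20). Near-identical HSP70 genes make the member uncertain, and in its family outside the ER 4 of 10 measured genes rose and 1 fell. Its promoter (GRCh38.p14, forward strand of chromosome 1) is shown because heat shock elements, here GAANNTTC or TTCNNGAA in capitals, are the sites through which HSF1 is known to act.
HSPA6, chr1:161524350-161524539: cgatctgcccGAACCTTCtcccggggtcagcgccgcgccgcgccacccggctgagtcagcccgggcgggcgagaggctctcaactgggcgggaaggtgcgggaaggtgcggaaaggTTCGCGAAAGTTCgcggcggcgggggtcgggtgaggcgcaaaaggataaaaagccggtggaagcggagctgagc
It held 3 matches, of which the last 2 overlap, and 0.139% of the 27305 promoters and 0.0544% of those of tested genes held 3 or more. The same window of DNAJB1, HSPH1 and BAG3, which also rose, held 0 matches, and that of ZFAND2A held 1. Of 18 measured HSP40 genes and HSP70 co-chaperones 13 rose and 0 fell. DNAJB1, the main inducible HSP40, had 11.46, 11.42 and 11.54 with CdCl, against 9.27, 9.25 and 9.59 with vehicle, and BAG3, which sends clients to autophagy, had 10.46, 10.54 and 10.64 against 8.64, 8.60 and 8.61. Both were higher on every CdCl array (2.10 ± 0.22 and 1.93 ± 0.15). The nucleotide exchange factor HSPH1 rose by 1.73 ± 0.10 and the small heat shock protein HSPB8, a partner of BAG3, by 1.06 ± 0.14. In the remaining HSP90, small HSP and chaperonin list 8 of 16 rose and 1 fell. The fall was that of HSF1, by 0.31 ± 0.11.

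Genes of protein disposal also rose. Of 13 measured ubiquitin and p97 genes 7 rose and 0 fell, led by ZFAND2A, an arsenite-inducible proteasome partner, with 12.53, 12.52 and 12.69 in CdCl cells and 9.69, 9.59 and 9.72 in vehicle cells (2.91 ± 0.22). Proteasome subunits rose in 10 of 25 cases and fell in 0, the largest rise being that of PSMD12 (0.62 ± 0.15). Autophagy and lysosome genes rose in 14 of 23 and fell in 1. Among the rises were the cargo receptor SQSTM1 (0.63 ± 0.16) and the lysosomal proteases CTSL (1.50 ± 0.11) and CTSD (1.07 ± 0.32). The 3 probe sets of SQSTM1 gave differences from 0.63 to 1.59.

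Some genes of the endoplasmic reticulum rose, while its main chaperone did not pass by the probe set that stood for it. Of 19 ER chaperones and XBP1 targets 7 rose and 0 fell, and the largest were DNAJB11 (0.95 ± 0.23) and EDEM1 (0.85 ± 0.24). The call of HSP90B1 was lost without any single CdCl or vehicle array (adjusted p = 0.0549 to 0.126). CALR lost its call with probe sets averaged (0.412) and PDIA6 with quantile normalization (0.0764), each among other settings. HSPA5, the main ER chaperone, had 15.55, 15.53 and 15.59 with CdCl and 15.42, 15.40 and 15.28 with vehicle, a difference of 0.19 ± 0.28 (adjusted p = 0.625). The other probe set of HSPA5 gave 0.94. DDIT3, which promotes death in ER stress, differed by 0.23 ± 0.58 (adjusted p = 0.783). Among 19 measured ATF4 targets and stress regulators, 4 rose and 7 fell. PPP1R15A, the phosphatase subunit that restores translation, had 10.93, 10.90 and 10.89 with CdCl, against 7.91, 8.01 and 7.97 with vehicle (2.94 ± 0.36). ATF3, a stress-induced repressor, rose by 1.97 ± 0.69, a call lost without CdCl replicate 2 (adjusted p = 0.0546) or without vehicle replicate 1 or 2 (adjusted p = 0.0559 and 0.0521). The ATF3 arrays of the groups did not overlap, with an SD of 0.07 with CdCl and 0.11 with vehicle. Its SE also holds the spread of high-dose Kbr at 48 h and its vehicle, with SDs of 2.19 and 1.03. The serine synthesis enzymes fell, PHGDH by 1.70 ± 0.29 and PSAT1 by 1.06 ± 0.18, and so did the stress regulator NUPR1, by 1.35 ± 0.37.

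The plot of the gene lists shows how these groups lie beside the others.

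**Figure D3:**
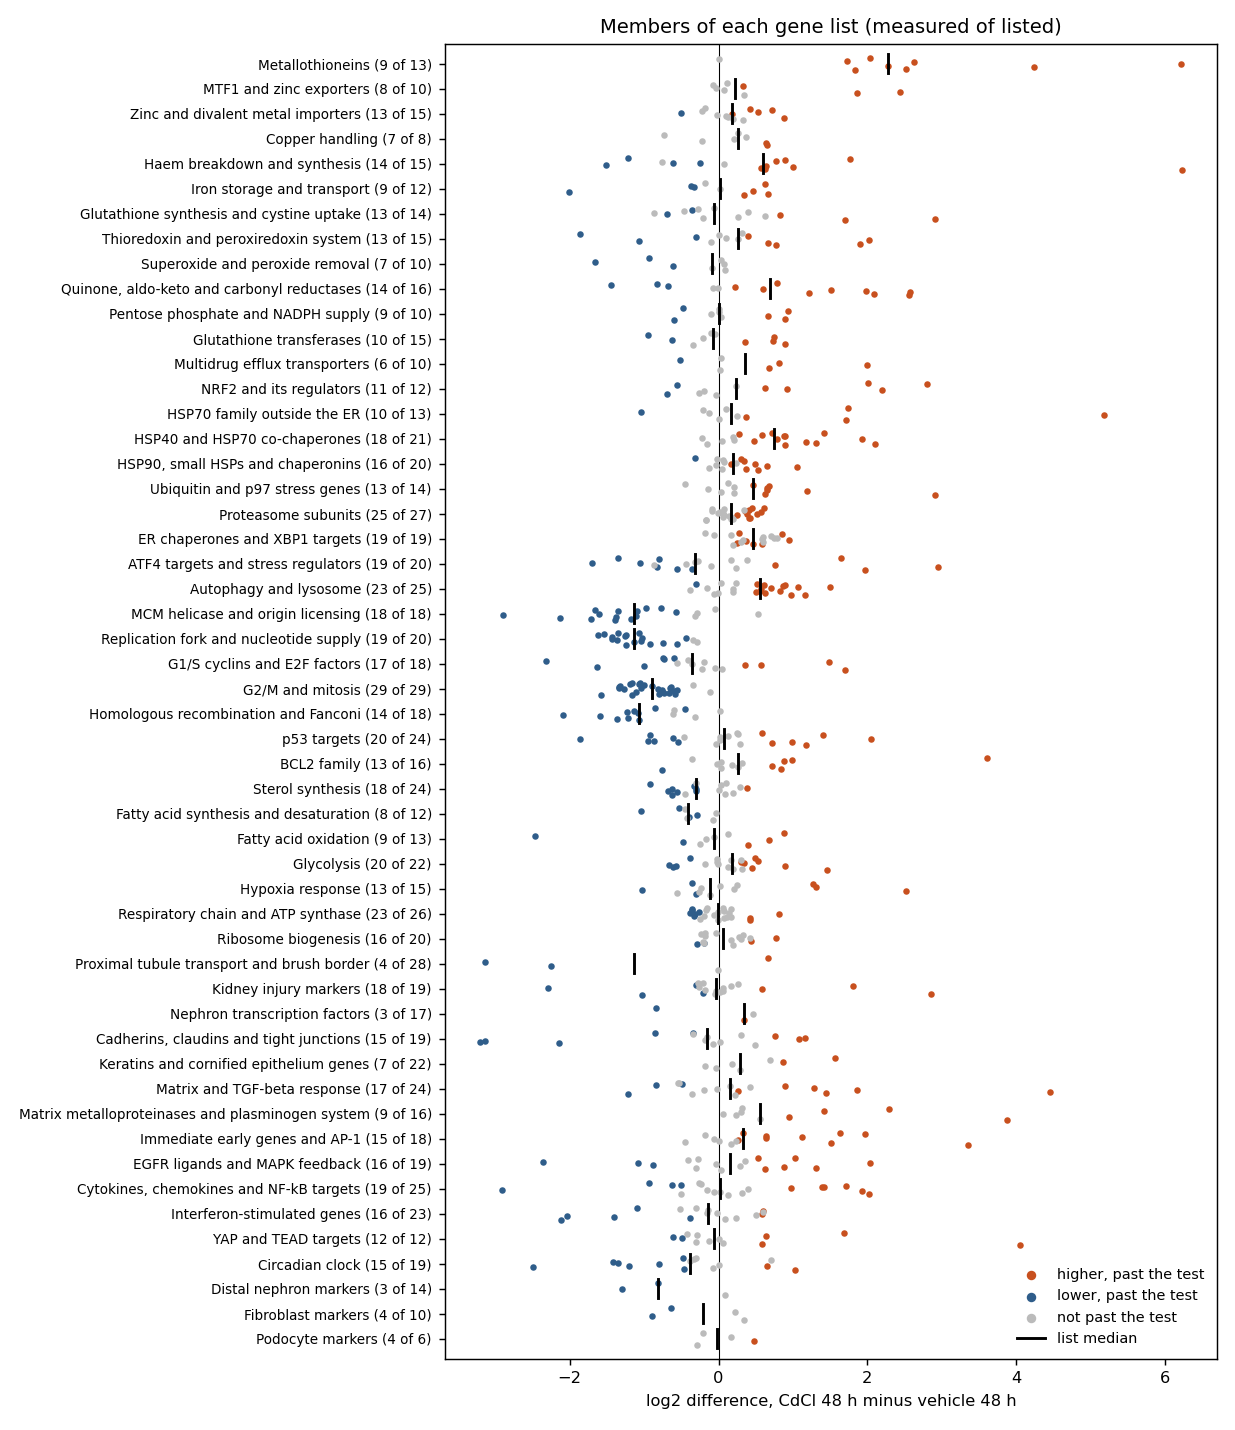
Log2 difference, CdCl 48 h minus vehicle 48 h, of each measured member of every list with 3 or more measured genes, in orange if higher and past the test, in blue if lower and past it, and in grey otherwise. Black bars are list medians. The metallothionein median lies at 2.28, and those of origin licensing, replication fork and mitosis genes lie at -1.14, -1.14 and -0.90.

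Genes of DNA replication and division fell as a body. Of 18 measured origin-licensing and helicase genes 14 fell and 0 rose, of 19 replication fork and nucleotide genes 17 fell and 0 rose, and of 29 mitotic genes 27 fell and 0 rose. The licensing factor CDT1 had 6.14, 5.39 and 5.67 in CdCl cells, against 8.66, 8.64 and 8.59 in vehicle cells (fell by 2.90 ± 0.13 on the log2 scale), and the helicase subunit MCM5 fell by 2.13 ± 0.14. The mitotic kinase CDK1 had 9.42, 8.62 and 8.49 with CdCl and 10.30, 10.65 and 10.30 with vehicle (-1.57 ± 0.16). All CdCl arrays lay below all vehicle arrays for these 3 genes. With CdCl at 12 h, relative to its own vehicle, the licensing, replication fork and mitotic lists had medians of -0.84, -0.81 and -0.99. CDC6, which loads the helicase, differed by 0.53 ± 0.22 and did not pass. Homologous recombination and Fanconi genes fell in 10 of 14 and rose in 0, with the helicase BRIP1 lowest (-2.10 ± 0.17), though its second probe set, near background, gave -0.43.

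Regulators of the G1 to S step did not move together. Of 17 measured, 4 rose and 6 fell. The cyclin CCND1 had 7.31, 6.91 and 7.18 with CdCl, against 5.34, 5.37 and 5.58 with vehicle (1.70 ± 0.38), and the repressive factor E2F7 rose by 1.48 ± 0.17. Its relative E2F8 fell at least 3.88-fold and CCNE2, the S-phase cyclin, fell by 1.64 ± 0.16. Among 20 p53 targets 6 rose and 6 fell. The stress-response gene GADD45A rose by 2.04 ± 0.22, the AKT inhibitor PHLDA3 by 1.40 ± 0.15 and the CDK inhibitor CDKN1A by 1.17 ± 0.10, whereas MDM2, the p53 ubiquitin ligase, differed by -0.03 ± 0.16 and GDF15 by 0.29 ± 0.19. GDF15 passed with only the CdCl and Di set fitted (adjusted p = 0.0103). In the BCL2 family 5 of 13 rose and 1 fell. HRK, a BH3-only death activator, had 7.58, 7.89 and 7.62 with CdCl, against 4.35, 3.67 and 4.25 with vehicle (3.61 ± 0.17, with its second, dim probe set at 1.55).

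Metabolic genes passed in both directions. Sterol synthesis genes fell in 9 of 18 and rose in 1, led by the regulator INSIG1 (-0.92 ± 0.20) and the epoxidase SQLE (-0.68 ± 0.10), and fatty acid synthesis genes fell in 4 of 8. PDK4, which closes pyruvate off from the mitochondrion, had 9.56, 9.14 and 9.36 with CdCl, against 11.81, 12.05 and 11.61 with vehicle (-2.47 ± 0.24). Another PDK4 probe set, under background in both groups, gave -0.92. The glucose importer SLC2A1 rose by 1.46 ± 0.13 among 7 up and 4 down of 20 glycolysis genes, and ADM, a hypoxia-induced peptide, by 2.52 ± 0.21 among 3 up and 3 down of 13 hypoxia genes. Respiratory chain genes passed upward in 3 and downward in 6 of 23, and ribosome biogenesis genes in 2 and 2 of 16.

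Several transporters and adhesion genes of the tubule fell. Of 28 listed transport and brush border genes 4 were measured, and 1 rose and 2 fell. SLC4A4, the basolateral bicarbonate carrier of the proximal tubule, had 9.70, 9.83 and 9.71 in CdCl cells, against 12.86, 12.92 and 12.87 in vehicle cells (-3.14 ± 0.23, 8.81-fold lower with CdCl). SLC3A1, a subunit of the cystine and dibasic amino acid transporter, fell by 2.25 ± 0.26 and DPP4, a brush border peptidase, rose by 0.67 ± 0.15. SLC6A13, a GABA and betaine transporter, had 6.65, 6.30 and 6.51 with CdCl and 10.31, 10.16 and 10.44 with vehicle (-3.82 ± 0.29), with another, dim probe set at -0.81. The arrays of these genes did not overlap between groups. In the junction list 3 of 15 rose and 5 fell. The kidney cadherin CDH16 had 5.76, 5.40 and 5.39 with CdCl, against 8.72, 8.86 and 8.60 with vehicle (-3.21 ± 0.35), and CLDN2, the pore-forming claudin of the proximal tubule, had 5.80, 6.14 and 6.11 against 9.21, 9.21 and 9.04 (-3.14 ± 0.23). CDH6 fell by 2.15 ± 0.22, with its 6 probe sets from -3.25 to -0.35, while CLDN4 and CLDN12 rose by 1.09 ± 0.13 and 1.16 ± 0.18.

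Kidney injury markers passed in both directions, in shares near those of all genes. Of 18 measured 3 rose and 4 fell, beside 20.7% higher and 22.0% lower over all genes. LCN2, an iron-binding protein used as a urine marker of injury, had 8.57, 9.01 and 8.29 with CdCl, against 6.00, 5.54 and 5.78 with vehicle (2.85 ± 0.13), and CD44, a hyaluronan receptor, rose by 1.81 ± 0.23. HAVCR1, the injury marker KIM-1, had 9.31, 9.33 and 9.04 with CdCl and 10.20, 10.38 and 10.17 with vehicle, and fell by 1.02 ± 0.16. VCAM1, an adhesion molecule of injured tubules, fell by 2.29 ± 0.28.

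Members of the matrix, protease and AP-1 lists were higher with CdCl. COL12A1, a fibril-associated collagen, had 9.01, 9.17 and 9.17 in CdCl cells, against 4.95, 4.33 and 4.68 in vehicle cells (4.46 ± 0.39). MMP1, a collagenase under background in vehicle, was at least 8.25-fold higher, with 7.14, 6.99 and 7.01 against 2.83, 3.48 and 3.20. FOSL1, a component of AP-1, was at least 5.47-fold higher. These genes did not overlap between groups. In the matrix list 6 of 17 rose and 3 fell, with LAMB3 up by 1.86 ± 0.17 and COL4A1 down by 1.21 ± 0.12. Of 9 metalloproteinase and plasminogen genes 4 rose and 0 fell, the urokinase PLAU by 1.41 ± 0.35 and its receptor PLAUR by 2.29 ± 0.38. Of 15 immediate early and AP-1 genes 9 rose and 0 fell, among them JUN (1.51 ± 0.17) and the MAPK phosphatase DUSP1 (1.63 ± 0.15).

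Feedback and inflammatory genes split. Among 16 EGFR and MAPK feedback genes 6 rose and 3 fell, DUSP5 by 2.04 ± 0.16 upward and DUSP6 by 1.09 ± 0.13 downward, both phosphatases of ERK. The cytokine list had 6 up and 4 down of 19. The neutrophil chemokine CXCL5 rose by 1.93 ± 0.33 and TNFAIP3, a brake on NF-kB, by 1.71 ± 0.28, while the monocyte chemokine CCL2 was at least 4.13-fold lower with CdCl. IL6 was at least 3.89-fold higher. Interferon-stimulated genes passed upward in 2 and downward in 5 of 16, with IFIT1 at -2.12 ± 0.45. ANKRD1, a YAP target, had 6.72, 6.81 and 6.64 with CdCl and 2.70, 2.41 and 2.90 with vehicle, at least 6.60-fold higher, whereas the YAP targets CCN2 (0.06 ± 0.20) and AJUBA (0.01 ± 0.20) did not pass, and 4 of the 12 listed YAP targets rose and 2 fell. Clock genes passed downward in 7 and upward in 2 of 15. PER2, a repressor of the clock, had 4.65, 4.77 and 5.31 with CdCl, against 7.22, 7.57 and 7.40 with vehicle (-2.49 ± 0.35), and its activator BMAL1 rose by 1.03 ± 0.21.

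Among the largest rises of all were SPINK1, a secreted trypsin inhibitor, SOCS2, a feedback inhibitor of cytokine signalling, and ASB5. SPINK1 had 8.92, 9.08 and 9.47 in CdCl cells, against 3.52, 2.62 and 3.56 in vehicle cells, at least 35.7-fold higher. SOCS2 had 9.01, 8.79 and 9.07 with CdCl, against 2.87, 3.93 and 3.17 with vehicle, at least 31.1-fold higher. ASB5 was at least 26.8-fold higher. All vehicle arrays of the 3 genes lay under background. SNAI2, a repressor of epithelial genes, was at least 8.89-fold higher, and GADD45B, a relative of GADD45A, had 11.54, 11.51 and 11.61 with CdCl, against 6.82, 7.05 and 7.14 with vehicle (4.55 ± 0.24). XDH, the purine-oxidizing enzyme, was at least 5.82-fold higher. Among the largest falls, the B-cell adaptor BLNK was at least 16.8-fold lower with CdCl, with 2.76, 2.76 and 3.01 against 8.21, 8.05 and 7.96. RASSF10 had 5.05, 4.26 and 4.82 with CdCl and 9.11, 9.07 and 9.00 with vehicle (-4.35 ± 0.26), and the transcription factor IRX5 was at least 6.70-fold lower.

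The effect at 48 h was set against that at 12 h, each against its own vehicle, with an interaction term. Of the 11092 genes 24.2% passed, and 16.4% had a higher and 7.78% a lower value at 48 h than at 12 h. The median over all genes was 0.12, so values lie about that much lower relative to it. With a 2-fold minimum 7.69% passed, 4.39% with a higher value. After median centring of the arrays 1047 genes were higher and 1256 lower, and the share higher was 45.5% in place of 67.9%. All 8 risen metallothioneins had a larger difference from vehicle at 48 h, MT1M by 1.53 ± 0.33 (adjusted p = 0.00132), although their levels with CdCl were much the same at both times. MT1M averaged 14.51 with CdCl and 8.30 with vehicle at 48 h, and 14.57 with CdCl and 9.88 with vehicle at 12 h. MT2A averaged 15.22 with CdCl and 13.50 with vehicle at 48 h, and 15.21 with CdCl and 14.21 with vehicle at 12 h. The vehicle means of all 8 genes were lower at 48 h than at 12 h. HMOX1 had effects of 6.23 at 48 h and 6.27 at 12 h (difference -0.03 ± 0.27), and GCLM of 2.92 at both. Some genes had far larger effects at 48 h. DLL1, a Notch ligand, had effects of 3.59 at 48 h and -0.01 at 12 h (3.60 ± 0.08), and LCN2 of 2.85 and 0.13 (2.72 ± 0.18). GADD45B (2.82 ± 0.34) and SOCS2 (3.56 ± 0.31) gained too. HSPA6 had a smaller effect at 48 h, with values of 5.18 at 48 h and 8.85 at 12 h (-3.67 ± 0.22), and so had ZFAND2A (-3.88 ± 0.31), DNAJB1 (-1.10 ± 0.31) and ANKRD1 (-2.55 ± 0.21).

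For other genes, too, the vehicle cells themselves differed between times. ATF3 averaged 11.95 with CdCl and 9.98 with vehicle at 48 h, and 11.64 with CdCl and 4.46 with vehicle at 12 h. SLC7A11 averaged 11.14 with CdCl and 10.52 with vehicle at 48 h, and 11.09 with CdCl and 6.39 with vehicle at 12 h. For DDIT3 the averages were 13.29 and 13.06 at 48 h, and 11.80 and 8.07 at 12 h, CdCl before vehicle. For ZFAND2A they were 12.58 and 9.67 at 48 h, and 13.66 and 6.87 at 12 h, in the same order. The CdCl levels of ATF3 and SLC7A11 lay close together at both times, so the smaller effect at 48 h stood beside a higher vehicle level. For SLC4A4 both levels moved. CdCl cells averaged 9.75 at 48 h and 12.18 at 12 h, and vehicle cells 12.88 at 48 h and 12.18 at 12 h.

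**Figure D4:**
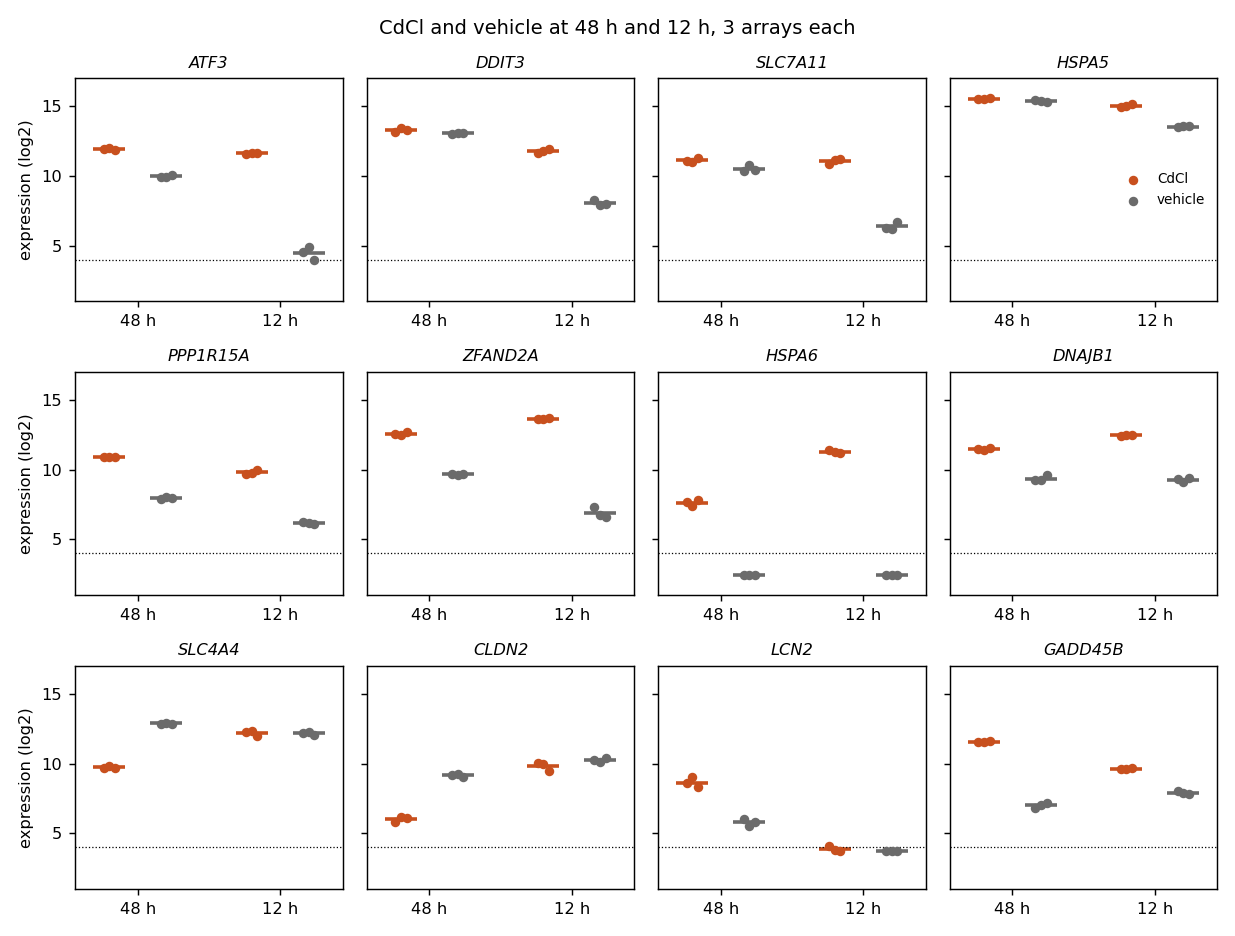
Expression (log2) of 12 genes on each array at 48 h and 12 h, CdCl in orange and vehicle in grey, with bars for means and a dotted line at the background level of 4. ATF3, DDIT3, SLC7A11, HSPA5 and ZFAND2A lie higher in vehicle at 48 h than at 12 h. SLC4A4 and CLDN2 differ from vehicle by -3.14 and -3.14 at 48 h.

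Against Di at the same time, where both share the 3 vehicle arrays, the direct difference was tested, and 37.6% of genes passed, 20.5% higher and 17.1% lower with CdCl (5.27% higher by at least 2-fold). All 8 risen metallothioneins were higher than with Di, where they stood at -1.36 to -1.07 relative to vehicle, and SLC30A2 was higher by 4.52 ± 0.24. COL12A1 (5.40 ± 0.39), SOCS2 (6.06 ± 0.22), ASB5 (5.47 ± 0.33), GADD45B (5.07 ± 0.24), MMP1 (3.80 ± 0.39) and DLL1 (3.58 ± 0.06) were likewise higher than with Di. Of 14 reductases 8 were lower with CdCl than with Di and 2 higher, and of 13 glutathione synthesis genes 5 were lower and 2 higher. Lower were SRXN1 (-2.05 ± 0.16), AKR1C1 (-2.15 ± 0.27) and NQO1 (-1.06 ± 0.13), and ALDH3A2 stood at -1.44 with CdCl and at 1.06 with Di relative to vehicle. HMOX1 was higher with CdCl by 0.70 ± 0.19. Against Di, SLC4A4 (0.08 ± 0.23) and SLC6A13 (0.37 ± 0.29) did not pass, whereas SLC17A1, a phosphate transporter (1.18 ± 0.33), SLC3A1 (0.72 ± 0.26) and DPP4 (0.99 ± 0.15) were higher with CdCl, and CLDN2 was 2.62 ± 0.23 higher than with Di, in which it lay lower still. Of 29 mitotic genes 20 were higher with CdCl than with Di and 1 was lower. The median of this list relative to vehicle was -0.90 with CdCl and -1.36 with Di. Origin licensing and replication fork lists had medians of -1.14 and -1.14 with CdCl, and of -1.18 and -1.01 with Di. BLNK, RASSF10 and IRX5, among the largest falls, did not pass against Di (differences of -0.38 ± 0.40, -0.21 ± 0.26 and -0.25 ± 0.27, adjusted p = 0.493, 0.566 and 0.503).

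High-dose Kbr had its own vehicle arrays and an unstated dose, and its effect was subtracted from that of CdCl. In that test 50.1% of genes passed, 27.9% with a higher and 22.3% with a lower effect of CdCl, and 23.9% passed with a 2-fold minimum. The 8 metallothioneins, which stood at -2.04 to -1.36 relative to vehicle with Kbr, again had a higher effect with CdCl, as did HSPA6 (effects of 5.18 with CdCl and 0.15 with Kbr). GCLM had effects of 2.92 with CdCl and 3.11 with Kbr (-0.19 ± 0.22, adjusted p = 0.493). TRIM16 had effects of 2.80 with CdCl and 2.72 with Kbr (0.08 ± 0.20, adjusted p = 0.757). The mitotic list had a median of -0.90 with CdCl and 0.66 with Kbr.

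**Figure D5:**
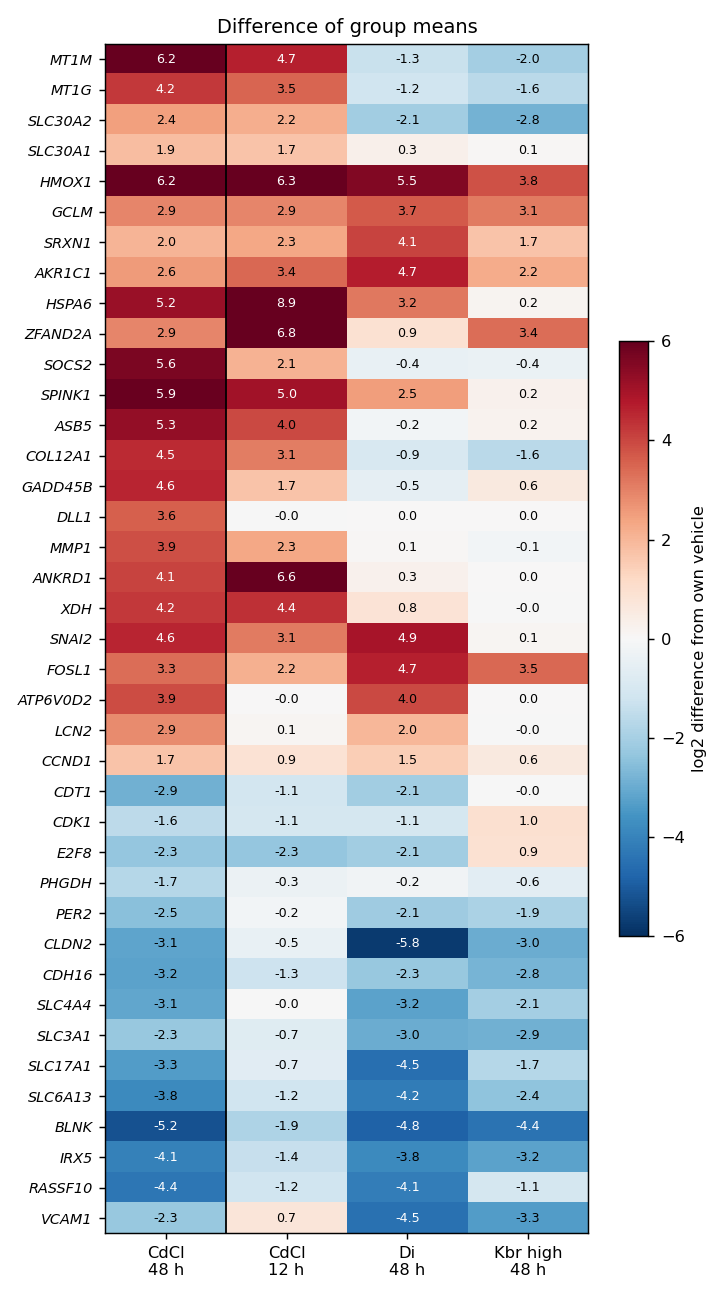
Difference of group means from the matching vehicle (log2) for 39 genes, with CdCl 48 h in the first column and CdCl 12 h, Di 48 h and high-dose Kbr 48 h after it. MT1M stands at 6.2 and 4.7 with CdCl at 48 h and 12 h, and at -1.3 and -2.0 with Di and Kbr.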

How the data were processed

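Each array's deposited log2 value per probe set was made by the authors with GCRMA, per the submitters' processing notes, with version and settings not given in the sources used here. The deposited values of 36 arrays (12 groups of 3) ran from 0.714 to 16.1. Precision is limited by how many arrays there are. The members and gene lists (54 lists, 898 genes, 687 measured) were chosen with earlier results of these data known. Of 54675 probe sets, 62 controls were left out, 41091 named 1 gene, 1801 several and 11721 none. Probe sets above 4 on at least 3 of all 36 arrays were kept, without regard to group. A gene kept only through CdCl arrays had to differ. The probe set with the highest mean stood for each gene (11092 genes). All arrays entered a single model (limma 3.58.1, lmFit and eBayes, in R 4.3.3) with 1 mean for each of the 12 groups, with Benjamini-Hochberg adjustment over all genes and a threshold of 0.05. Where the lower group averaged under 4, a fold is "at least" the higher mean over 4. The test was checked on simulated arrays. Named genes were index genes, the 15 largest rises and 15 largest falls with groups that did not overlap, the 6 largest and 2 smallest differences of each list, all metallothioneins, and the 5 largest each way in the other comparisons. Outside this rule, MTF1, MDM2, BLVRA, CDC6 and HSF1 were named after their values were seen. Alternatives were array weights, median centring, quantile normalization, a variance trend, other filters, the mean over probe sets, smaller sets of arrays, a replicate block and each array left out. RefSeq promoters (GRCh38.p14) were searched for motifs on both strands. Arrays were grouped by sample description, and p-values measure the spread between the labelled replicates, pooled for each gene over all 12 groups. A wide spread in groups outside a comparison thus enters its SE. For DDIT3 the SD at 48 h was 0.15 with CdCl and 0.06 with vehicle, against 1.87 with high-dose Kbr and 1.12 with the Kbr vehicle.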

Additional observations from a re-analysis of the deposited data

Results flagged for a closer look

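These index genes are given because the effect of CdCl at 48 h differed from that at 12 h by at least 2-fold, with limma's interaction term past the threshold. The values are 48 h minus 12 h on the log2 scale. Stress regulators had a smaller effect at 48 h, ATF3 by -5.21, ZFAND2A by -3.88, HSPA6 by -3.67, DDIT3 by -3.50, SLC7A11 by -4.08, HSPA5 by -1.30, BAG3 by -1.13 and DNAJB1 by -1.10. Vehicle cells stood higher at 48 h than at 12 h for ATF3 (9.98 and 4.46) and SLC7A11 (10.52 and 6.39). The same held for DDIT3 (13.06 and 8.07), ZFAND2A (9.67 and 6.87) and HSPA5 (15.36 and 13.55). The part of the vehicle level in the result was not tested. The difference was negative for tubule and injury genes, SLC4A4 at -3.13, VCAM1 at -3.02, CLDN2 at -2.68, CDH6 at -1.66 and HAVCR1 at -1.62. The replication genes CDT1 (-1.82) and MCM5 (-1.10) likewise. The difference was positive for MT1M (1.53) and LCN2 (2.72). MT1M averaged 14.51 with CdCl at 48 h and 14.57 at 12 h, and 8.30 with vehicle at 48 h and 9.88 at 12 h. Groups of 3 arrays are too small for a test of single outlying arrays.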

How the results depend on the processing

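Counts of 4735 genes (CdCl against vehicle), 4175 (against Di), 2687 (48 h minus 12 h) and 5562 (against high Kbr) stayed within 1.5 times under the alternatives run, except where given here. With a 2-fold minimum added they were 1194, 852, 853 and 2646. With array weights the 48 h minus 12 h count was 4399 (2997 higher and 1402 lower), and with median centring 1047 were higher, against 1824. Leaving out each array in turn gave 4109 to 4258 genes against vehicle (1961 to 2105 higher, 2039 to 2234 lower, 1185 to 1255 at 2-fold), 3488 to 3733 against Di (1850 to 2025 higher, 1486 to 1757 lower, 850 to 901 at 2-fold), 2201 to 2461 for 48 h minus 12 h (1446 to 1623 higher, 691 to 838 lower, 791 to 879 at 2-fold) and 5141 to 5695 against Kbr (2867 to 3094 higher, 2234 to 2652 lower, 2572 to 2878 at 2-fold). List members past the test numbered 394, and 353 to 370 without 1 array.

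The labels number replicates 1 to 3 in each group. In the CdCl and Di set same-numbered arrays did not deviate together (r = -0.348 to 0.416, with 8 of 45 pairs over 0.1), so the number was not taken as a pairing there, whereas in the Kbr set 45 of 45 were over 0.1 (0.218 to 0.701). The reported fit held no replicate block in either set, so the test against Kbr did not use this pairing. A replicate block gave 5481 genes against vehicle, 5032 against Di, 3783 for 48 h minus 12 h and 6325 against Kbr, and, within the CdCl and Di set, a choice made after seeing the data, 5297, 4732 and 3542.

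Of 402 named genes 299 passed against vehicle, 251 of them under every alternative that gave them a value, and 48 missed the threshold under at least 1. Directions turned for PRDX6 (-0.25) and PSMA5 (-0.043) with probe sets of a gene averaged. The PRDX6 probe set that stood for the gene gave 0.013 and another gave -0.52. DBP turned (0.0084) without a filter, a setting in which another probe set can stand for a gene. TXNIP, with both groups under 4, and genes near the background level have compressed differences.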
